A study of Mus musculus with 15 samples.

Results

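The genes described here are 7 genes of inhibitory neurons, Ptf1a, Pax2, Pax8, Gad1, Gad2, Slc32a1 and Slc6a5, chosen by name as the transcription factors that set the inhibitory fate and the genes that make, load or recapture GABA and glycine. They are 7 of the 57180 Ensembl gene identifiers in the deposited tables, and each matched 1 identifier. RNA-seq libraries of mouse brainstem were made in 2 experiments, with 3 libraries per genotype. The first experiment holds newborn C57BL/6 mice that were AMPK+/+ (WT) or AMPK-/- littermates, the latter labelled as lacking the catalytic subunit α2 of the AMP-activated protein kinase, which Prkaa2 encodes. The second experiment holds embryos that were LMX1B+/+ (WT), LMX1B+/- (Lmx1b+/-) or LMX1B-/- (Lmx1b-/-), where Lmx1b encodes a LIM homeodomain transcription factor and the loss of both alleles is lethal before birth. No Cre driver or drug is named for either experiment, and the tissue is a dissected block of many cell types. The labels do not tie libraries to litters, so p-values measure the spread between these libraries.

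GABA and glycine are the fast inhibitory transmitters of the brainstem, and many of its neurons release both. GABA is made from glutamate by the glutamic acid decarboxylases GAD67 (Gad1) and GAD65 (Gad2). Both transmitters are loaded into synaptic vesicles by VGAT (Slc32a1), and glycine is taken back into the terminal of glycinergic neurons by GlyT2 (Slc6a5). In the dorsal hindbrain and spinal cord, progenitors that express the bHLH factor Ptf1a give rise to inhibitory neurons, which then express the paired-box factors Pax2 and Pax8, whereas Lmx1b marks excitatory neurons of the dorsal horn and the serotonergic neurons.

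The 4 transmitter genes were the members called in the Lmx1b experiment, as described further on, so the bases before their transcription starts are shown. They are taken from RefSeq, build GRCm38.p6, which differs from the build GRCm39 that the submitters' processing notes name. Of the 250 bases before each first listed start, the longest stretch outside every annotated exon of GENCODE M21 is printed from 5′ to 3′. Capitals mark TAAT or its reverse complement ATTA, the core letters that many homeodomain proteins recognise.
Gad1, chr2:70561879-70562041, plus strand: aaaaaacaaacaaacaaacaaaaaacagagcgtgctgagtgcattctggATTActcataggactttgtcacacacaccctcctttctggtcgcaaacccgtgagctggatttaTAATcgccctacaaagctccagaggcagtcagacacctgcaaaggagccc
Gad2, chr2:22622077-22622204, plus strand: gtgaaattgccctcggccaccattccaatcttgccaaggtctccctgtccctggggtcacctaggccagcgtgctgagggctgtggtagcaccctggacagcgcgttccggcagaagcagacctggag
Slc32a1, chr2:158610724-158610757, plus strand: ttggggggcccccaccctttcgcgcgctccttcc
Slc6a5, chr7:49910049-49910145, plus strand: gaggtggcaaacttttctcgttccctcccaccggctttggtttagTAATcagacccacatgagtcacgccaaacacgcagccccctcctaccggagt

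The letters TAAT, on either strand, were found in the 250-base windows of 3 of the 7 members. There were 2 in the Gad1 window, both in the printed stretch, 3 in the Slc6a5 window, 1 of them in the printed stretch, and 1 in the Pax2 window. Over all 27025 genes with a RefSeq start, 55.3% had at least 1 match in a window of this length. A match of 4 letters is a description and not a binding site. Of the 7 members, 5 lie on chromosome 2 (Ptf1a, Pax8, Gad1, Gad2 and Slc32a1), with Slc6a5 on chromosome 7 and Pax2 on chromosome 19.

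Depth and the check of the targeted genes bear on every result below. Total counts were 28833130 to 37441679 in the 9 Lmx1b libraries. In the AMPK experiment, 4 libraries held 14975095 to 17384171 counts, but AMPK WT 2 held 291212 and AMPK-/- 3 held 335986. A count of 0 therefore allows up to 9.98 and 9.07 CPM (counts relative to the library total after TMM scaling, in the unit that edgeR gives) in these shallow libraries, against at most 0.198 CPM in the other 13; these limits, taken as 3 counts, cover counting error only. Lmx1b itself was at 0.848 to 1.45 CPM in the 3 Lmx1b-/- libraries and at 9.73 to 22.5 CPM in WT (log2 fold change -3.82, adjusted p = 0.00287). In Lmx1b+/- it was at 11.9 to 30.5 CPM (0.23, adjusted p = 0.618), so its level does not separate the heterozygous libraries from WT. Prkaa2 was at 12.1 to 25.4 CPM in the libraries labelled AMPK-/- and at 21.9 to 29.7 CPM in WT (-0.20, adjusted p = 0.659), so it does not check that label, and directions in this experiment are between labels. All adjusted p-values are from edgeR's quasi-likelihood test with Benjamini-Hochberg adjustment over all tested genes, and a gene is called where this value is under 0.05.

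On a scale per transcript length, the transmitter genes were the most abundant members in both experiments. In the WT embryos the mean RPKM (reads scaled by gene length and library total, as deposited) was 23.8 ± 1.76 for Slc32a1, 19.9 ± 4.12 for Gad1, 18.1 ± 3.29 for Gad2 and 11.6 ± 5.50 for Slc6a5 (SD, n = 3). The fate factors followed, with 6.10 ± 1.09 for Pax2, 1.69 ± 0.650 for Pax8 and 0.162 ± 0.0978 for Ptf1a. Neighbours in this order among the transmitter genes overlapped between libraries, whereas the order of the 3 fate factors was the same in each WT embryo. In newborn WT libraries Slc6a5 stood first at 36.0 ± 10.97 RPKM, within the spread of Slc32a1 at 30.7 ± 4.81, ahead of Gad1 at 21.9 ± 0.801 and Gad2 at 17.4 ± 4.92. Pax2 came to 2.13 ± 0.978 and Pax8 to 1.49 ± 0.482 RPKM, which overlapped.

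Ptf1a, the earliest acting of these factors, was close to the limit of detection. It had 0 counts in all 6 AMPK libraries. In the embryos it had 11, 8 and 3 counts in WT, 1, 3 and 4 in Lmx1b+/-, and 1, 4 and 3 in Lmx1b-/-. The highest counts were thus in 2 WT libraries, while WT 3 lay among the mutants. Ptf1a was removed by the filter on low counts and not tested; without that filter its adjusted p was 0.285 for Lmx1b+/- and 0.724 for Lmx1b-/- against WT. A difference was not detectable at this depth.

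The comparison of Lmx1b+/- with WT embryos gave lower levels of the 4 transmitter genes and no called change of Pax2 or Pax8. Of the 6 tested members, 4 were called lower and 0 higher. Among all 21729 tested genes 36.7% were called in this comparison, 17.3% lower and 19.4% higher, so the background of calls was high. The median log2 fold change of the 6 tested members was -0.53, beside -0.03 over all tested genes. In bulk tissue, fewer cells of a type and less RNA per cell cannot be told apart.

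Slc32a1, the vesicular transporter that both transmitters share, had the smallest p of the members. Its level was 65.0, 64.8 and 58.2 CPM in WT 1 to 3 and 34.7, 39.1 and 39.8 CPM in Lmx1b+/- 1 to 3. Every heterozygous library lay below every WT library, as held for 21.9% of all tested genes. The log2 fold change was -0.73 (SE 0.10, adjusted p = 0.000174).

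Gad2, which makes GABA mostly at nerve terminals, was at 88.8, 108.3 and 100.2 CPM in WT, against 58.3, 66.0 and 75.5 CPM in Lmx1b+/-. The groups did not overlap, and the log2 fold change was -0.57 (SE 0.11, adjusted p = 0.00132). Gad1, whose enzyme supplies most of the GABA of the cell body and of early development, was at 139.7, 132.5 and 151.8 CPM in WT, against 106.1, 97.2 and 99.1 CPM in Lmx1b+/-. Here too the heterozygous libraries all lay below WT, and the log2 fold change was -0.49 (SE 0.10, adjusted p = 0.00280).

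Slc6a5, the glycine transporter, varied more within WT than any other transmitter gene. It was at 60.2, 129.0 and 51.2 CPM in WT, against 41.9, 39.3 and 57.9 CPM in Lmx1b+/-, so that the groups overlapped and WT 2 stood above the rest. The log2 fold change was -0.79 (SE 0.27, adjusted p = 0.0362). The call rested on single libraries: without WT 2 the log2 fold change was -0.26 (adjusted p = 0.226), and it was also lost without Lmx1b+/- 1 (adjusted p = 0.0878) or Lmx1b+/- 2 (adjusted p = 0.119), all in edgeR.

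Neither Pax2 nor Pax8 passed the test. Pax2 was at 32.2, 39.6 and 22.8 CPM in WT, against 31.99, 20.6 and 21.3 CPM in Lmx1b+/-, with overlapping groups and a log2 fold change of -0.35 (95% interval -0.80 to 0.10, adjusted p = 0.204). It was called lower when libraries were scaled by their totals only (-0.58, adjusted p = 0.0143) and with no filter on low counts (adjusted p = 0.0305), both in edgeR. It was also called by limma on log2(RPKM + 1) (adjusted p = 0.0326). Of all genes called, 73.9% were lower with scaling by totals and 70.1% in that limma fit, beside 47.0% in the main fit. With 1 library left out, Pax2 ranged from -0.59 to -0.16. It was called in 1 of these 9 edgeR fits, without Lmx1b+/- 1 (adjusted p = 0.0377). Pax8 was at 6.79, 14.4 and 7.91 CPM in WT, against 12.1, 8.36 and 10.7 CPM in Lmx1b+/-. All heterozygous values lay within the WT range, and the log2 fold change was 0.10 (95% interval -0.43 to 0.63, adjusted p = 0.780), with a sign that depended on the scaling.

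**Figure D1:**
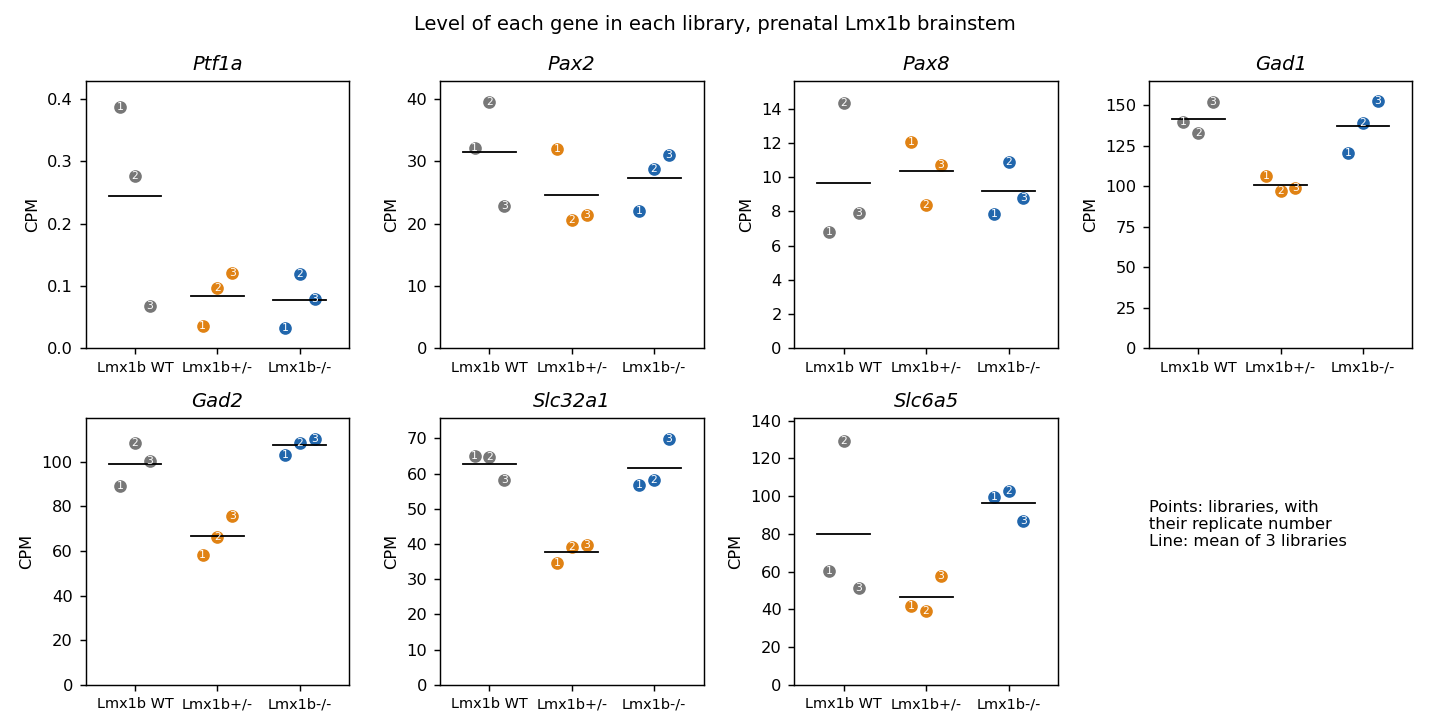
Level of each of the 7 genes in CPM (vertical axis, linear) in the 9 embryonic libraries by genotype; numbered points are libraries and lines are means of 3. The Lmx1b+/- libraries sit below the WT and Lmx1b-/- libraries for Gad1, Gad2 and Slc32a1, while Slc6a5 of WT 2 at 129.0 CPM stands above the other WT libraries.

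The comparison of Lmx1b-/- with WT embryos, which asks what the loss of both alleles does, gave no called member. Of the 6 tested members 0 were called, and 0 had an unadjusted p under 0.05, in edgeR and in DESeq2. Over all tested genes, 0.0184% (4 genes, Lmx1b among them) were called and 8.09% had an unadjusted p under 0.05. The values in Lmx1b-/- 1 to 3 were as follows, each set against the WT values above. Slc32a1 was at 56.8, 58.1 and 69.8 CPM, with a log2 fold change of -0.02 (95% interval -0.25 to 0.20). Gad1 was at 120.4, 138.8 and 152.7 CPM (-0.04, interval -0.27 to 0.18), and Gad2 was at 102.9, 108.5 and 110.3 CPM (0.11, interval -0.12 to 0.35). These 3 genes overlapped WT, and their intervals lie above the log2 fold changes of Lmx1b+/- against WT.

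Slc6a5 was at 99.5, 102.7 and 86.6 CPM in Lmx1b-/-, inside the WT range, with a log2 fold change of 0.27 and a wide interval of -0.31 to 0.84. Pax2 was at 22.1, 28.7 and 31.0 CPM (-0.20, interval -0.65 to 0.24). Pax8 was at 7.88, 10.9 and 8.80 CPM (-0.07, interval -0.60 to 0.46). For these 3 genes the intervals are too wide to say that the levels were alike.

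Lmx1b-/- was then compared with Lmx1b+/-, using the same heterozygous libraries as above, so that this is not a separate observation of their level. Of the 6 tested members 4 were called higher in Lmx1b-/- and 0 lower, where 25.5% of all tested genes were called and 11.5% were called higher. The log2 fold change was 0.70 (SE 0.10, adjusted p = 0.000421) for Slc32a1 and 0.69 (SE 0.11, adjusted p = 0.000669) for Gad2. It was 0.45 (SE 0.10, adjusted p = 0.00743) for Gad1. For Slc6a5 it was 1.05 (SE 0.27, adjusted p = 0.0125), and without Lmx1b+/- 2 it was 0.90 (adjusted p = 0.0526 in edgeR). All 4 transmitter genes had every Lmx1b-/- library above every Lmx1b+/- library, as did 21% of all tested genes. Pax2 (0.15, adjusted p = 0.642) and Pax8 (-0.17, adjusted p = 0.653) overlapped between the genotypes.

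**Figure D2:**
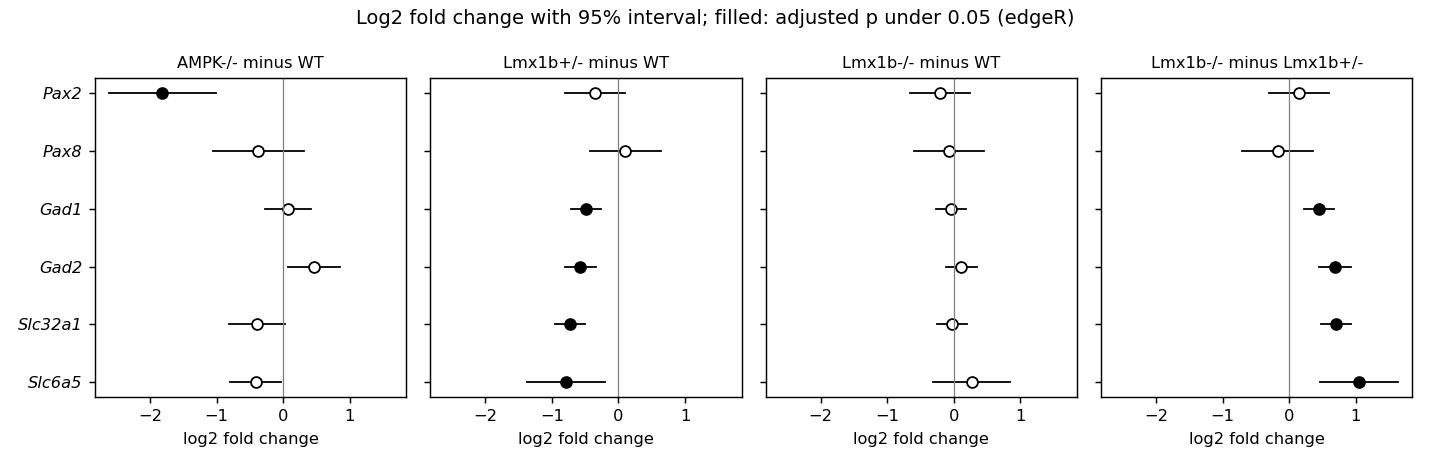
Log2 fold change of the 6 tested members (horizontal axis) with 95% intervals in the 4 comparisons; filled points have an adjusted p under 0.05. Filled points lie at -0.79 to -0.49 for Slc6a5, Slc32a1, Gad2 and Gad1 in Lmx1b+/- against WT, none appears in Lmx1b-/- against WT, and Pax2 at -1.81 is the filled point of the AMPK comparison.

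Summed over Gad1, Gad2, Slc32a1 and Slc6a5, the level was 354 to 435 CPM in WT, 241 to 272 CPM in Lmx1b+/- and 380 to 419 CPM in Lmx1b-/-. The heterozygous libraries were thus the low group and the other groups overlapped. These libraries also differed in the summed levels of other gene lists. The 9 progenitor genes summed to 1285 to 2028 CPM in Lmx1b+/-, against 950 to 1009 CPM in WT and 1068 to 1178 CPM in Lmx1b-/-. Of these 9, 2 were called higher than in WT, a share near the 19.4% called higher over all genes, and Fabp7, a radial glial gene, carried most of the sum at 798 to 1446 CPM against 407 to 431 CPM. Of 12 hindbrain Hox genes 6 were called higher in Lmx1b+/- than in WT (19.4% over all genes), with sums of 265 to 714 against 156 to 331 CPM. Of 10 tested cerebellar genes 6 were called lower (17.3% over all genes), with sums of 295 to 426 against 464 to 602 CPM. In Lmx1b-/- this list summed to 353 to 413 CPM. None of these progenitor, Hox or cerebellar genes was at 0 in every library. The 12 pan-neuronal genes summed to 6793 to 7994 CPM in Lmx1b+/- and to 6690 to 7276 CPM in WT, with 2 called higher and 2 lower, and scaling by these genes left all 4 transmitter genes called. The part of tissue content or dissection in the heterozygous values was not tested.

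**Figure D3:**
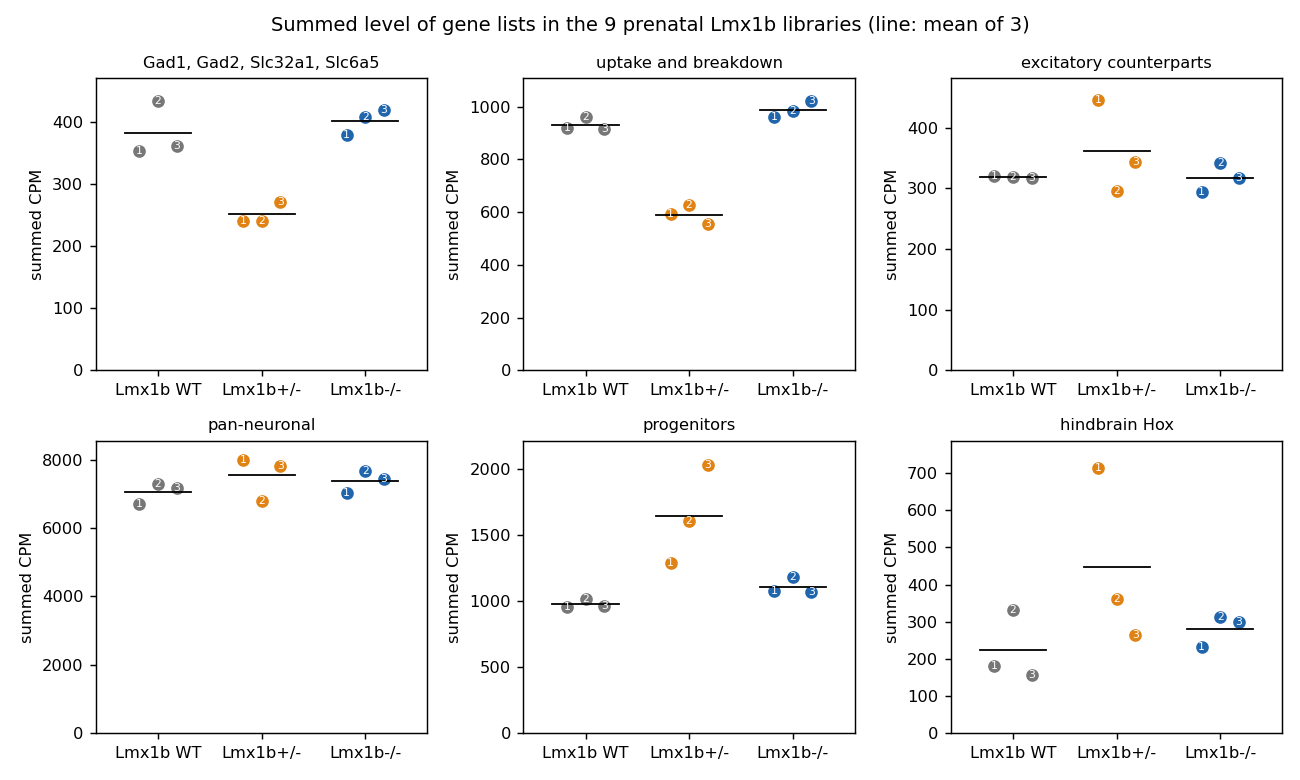
Summed CPM (vertical axes, from 0) of 6 gene lists in the 9 embryonic libraries; numbered points are libraries and lines are means of 3. The transmitter genes and the uptake and breakdown genes are lowest in Lmx1b+/-, where the progenitor sum, at 1285 to 2028 CPM, is highest.

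Gene length also moved with the heterozygous libraries. When a smooth trend with gene length was removed from each library, Slc32a1 and Gad2 stayed called lower in Lmx1b+/- against WT. Gad1 then had a log2 fold change of -0.27 (adjusted p = 0.0837) and Slc6a5 one of -0.57 (adjusted p = 0.132), both in edgeR. These are the longest members, with 7639 and 7203 bases, against 2797 bases for Slc32a1. Against Lmx1b-/-, Gad1 was likewise no longer called (0.25, adjusted p = 0.141).

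The genes that remove and degrade the transmitters were mostly lower in Lmx1b+/- as well. Of 10 such genes, 7 were called lower and 1 higher in Lmx1b+/- against WT, beside 17.3% lower and 19.4% higher over all genes, and their sum was 554 to 627 CPM against 915 to 963 CPM. The glial glycine transporter Slc6a9 had a log2 fold change of -0.74 (adjusted p = 0.000122). The astrocytic GABA transporter Slc6a11 also had one of -0.74 (adjusted p = 0.000287). In Lmx1b-/- against WT 0 of the 10 were called, with 0 at an unadjusted p under 0.05 in edgeR. Against Lmx1b+/-, 6 were called higher, led by Slc6a11 (0.92, adjusted p = 0.000121).

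The receptor and anchoring genes were called about as often as genes in general. Of 17 tested, 3 were called higher and 3 lower in Lmx1b+/- against WT, beside 36.7% called over all genes. Nlgn2, an adhesion protein of inhibitory synapses, had a log2 fold change of -0.86 (adjusted p = 0.000491), the GABA-A receptor subunit Gabrg3 one of -0.66 (adjusted p = 0.00431), and the embryonic glycine receptor subunit Glra2 one of 0.53 (adjusted p = 0.00127). Against the same heterozygotes, 4 of the 17 were called higher in Lmx1b-/- and 0 lower, beside 11.5% called higher over all genes. Of the chloride transporters, the extruder KCC2 (Slc12a5), which makes GABA and glycine inhibitory as neurons mature, was called lower in Lmx1b+/- (-1.07, adjusted p = 9.4e-05), and Slc12a2 was not called. Among 14 tested genes listed as other fate factors of inhibitory neurons 4 were called lower and 0 higher in Lmx1b+/-. Over all genes 17.3% were called lower and 19.4% higher. The smallest adjusted p-values were those of Prdm13, a partner of Ptf1a (-1.17, adjusted p = 0.0168), Tfap2b (-0.76, adjusted p = 0.0243) and Tfap2a (-0.46, adjusted p = 0.0277). Tfap2b overlapped between the genotypes. In Lmx1b-/- against WT 0 of these 14 were called, although 4 had an unadjusted p under 0.05 in edgeR.

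In the AMPK experiment Pax2 was the 1 member called, of 6 tested. Among all 17397 tested genes 8.94% were called, 5.17% lower and 3.77% higher. Pax2 was at 10.3, 6.66 and 15.6 CPM in WT 1 to 3 and at 2.05, 5.31 and 0 CPM in AMPK-/- 1 to 3. All AMPK-/- values lay below all WT values, as held for 12.7% of tested genes. The log2 fold change was -1.81 (SE 0.39, adjusted p = 0.00582).

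The shallow libraries limit this result. WT 2 rests on 2 counts of Pax2, and the 0 of AMPK-/- 3 allows up to 9.07 CPM, a level within the WT range. Without both shallow libraries the log2 fold change was -1.81 with an adjusted p of 0.130 in edgeR, in a fit that called 6 genes in all, and without WT 3 it was -1.45 with an adjusted p of 0.0673. WT 3 also held 852 CPM of 10 skeletal muscle genes, against 6.66 to 15.7 CPM in the other 5 libraries, and its part in the Pax2 result was not tested. Pax2 is among the transcription factors that the study itself listed from these libraries, so its direction is not independent evidence.

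The other members were not called between the AMPK labels. Pax8 was at 12.2, 6.66 and 7.12 CPM in WT, against 5.35, 9.39 and 6.04 CPM in AMPK-/-, with overlapping groups (log2 fold change -0.37, adjusted p = 0.529). Gad1 was at 171.1, 156.4 and 150.5 CPM in WT, against 141.4, 184.4 and 187.4 CPM in AMPK-/- (0.08, adjusted p = 0.830). Gad2 was at 69.4, 123.1 and 98.3 CPM in WT, against 132.9, 116.5 and 126.9 CPM in AMPK-/- (0.47, 95% interval 0.07 to 0.86, adjusted p = 0.128). The GABA-synthesis genes thus overlapped between the labels. For Gad2 the overlap came from the shallow WT 2, which rests on 37 counts, and WT 1 was lowest.

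Slc32a1 was at 69.5, 89.8 and 85.7 CPM in WT, against 70.6, 62.3 and 30.2 CPM in AMPK-/-, where the lowest value rests on 10 counts (log2 fold change -0.39, adjusted p = 0.245). Slc6a5 was at 180.8, 246.2 and 308.6 CPM in WT, against 196.4, 185.0 and 163.2 CPM in AMPK-/- (-0.41, adjusted p = 0.169). The pan-neuronal genes summed to 6158 to 6573 CPM in AMPK-/- and 4944 to 5957 CPM in WT. Scaled by them, Slc32a1 (-0.64, adjusted p = 0.0470) and Slc6a5 (-0.63, adjusted p = 0.0245) were called lower in edgeR. With this scaling 11.8% of all tested genes were called, 91.5% of these lower, and the median log2 fold change over all genes was -0.24. With 1 library left out, Slc6a5 was called in 1 of 6 edgeR fits. That fit, without WT 1 (-0.62, adjusted p = 0.00466), called 16.4% of all tested genes. Without WT 3 the log2 fold change of Slc6a5 was -0.12 (adjusted p = 0.817).

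**Figure D4:**
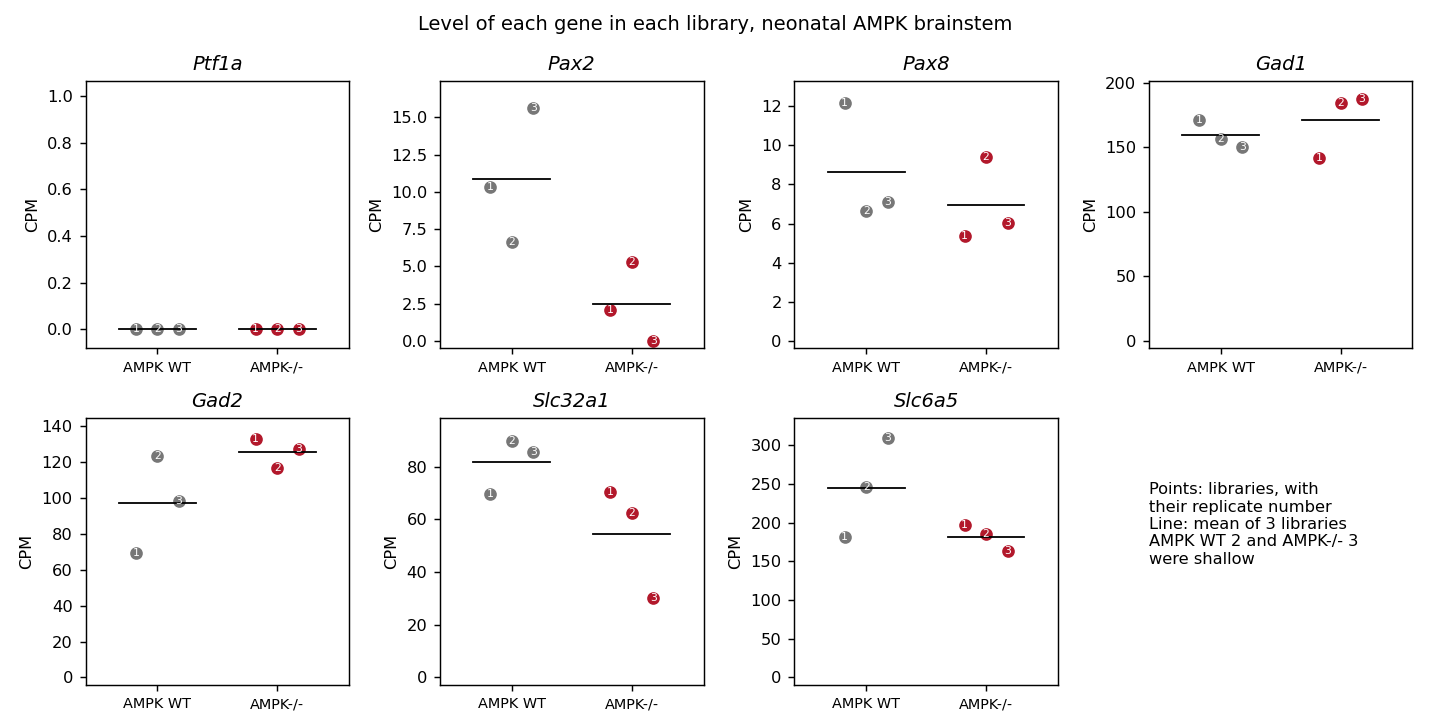
Level of each of the 7 genes in CPM (vertical axis, linear) in the 6 newborn libraries by label; numbered points are libraries, lines are means of 3, and WT 2 and AMPK-/- 3 are the shallow libraries. Pax2 is at 0 to 5.31 CPM in AMPK-/- and at 6.66 to 15.6 CPM in WT, the other genes overlap, and Ptf1a is at 0 throughout.

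The related lists are read against the 5.17% of all genes called lower and the 3.77% called higher in this comparison. In the first, 1 of 10 uptake and breakdown genes was called lower, the glycine transporter Slc6a9 (-0.93, adjusted p = 0.00344), and 1 higher, Slc6a13 (1.70, adjusted p = 0.00720). Of 18 receptor and anchoring genes 2 were called lower, the adult glycine receptor subunit Glra1 (-1.79, adjusted p = 0.00803) and Nlgn2 (-0.65, adjusted p = 0.0223), and 1 higher, Gabrg1 (0.91, adjusted p = 0.0190). Slc12a5 was called lower (-0.85, adjusted p = 0.00470). Among 12 tested genes listed as other inhibitory fate factors, Lbx1 (-1.78, adjusted p = 0.0254) and Sall3 (-1.07, adjusted p = 0.0489) were called lower and Gata3 (2.07, adjusted p = 0.0463) higher. Whether these calls come from inhibitory neurons was not tested. Glra1, Sall3 and Gata3 overlapped between the labels. Mean Gata3, at 3.49 CPM in AMPK-/- and 0.582 CPM in WT, lay below what a count of 0 allows in the shallow libraries. Without both shallow libraries, 6 genes were called in all.

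Ratios between members within a library do not depend on how libraries are scaled. The ratio of Slc6a5 to Gad1, in RPKM, was 0.358, 0.457 and 1.03 in WT embryos, 0.419 to 0.620 in Lmx1b+/- and 0.601 to 0.877 in Lmx1b-/-. In the newborn libraries it was 1.12 to 2.18 in WT and 0.924 to 1.47 in AMPK-/-. The ratio of Gad2 to Gad1 was 0.527 to 1.22 over all 15 libraries, with overlap between all genotypes. The ratio of Pax2 to Gad1 was 0.212 to 0.426 in the 9 embryonic libraries. In the newborn libraries it was 0.0601 to 0.147 in WT and 0, 0.0205 and 0.0407 in AMPK-/-, and the ratio of Pax8 to Pax2 was 0.406 to 1.05 in WT and 2.33 and 1.58 in AMPK-/- 1 and 2, so that neither overlapped between the labels. No test was made of these ratios because Pax2 was 0 in the shallow AMPK-/- 3.

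In the 17 comparisons of log2 ratios that had no count of 0, the lowest adjusted p was 0.486 (two-sided exact permutation test), and 3 libraries against 3 cannot go below an unadjusted 0.1. Among these 17, the groups did not overlap for Pax8 to Pax2 in Lmx1b+/- against WT (a difference of 0.51 on the log2 scale) or for Pax2 to Gad1 in Lmx1b-/- against Lmx1b+/- (-0.28). The ratios Gad2 to Gad1 and Slc6a5 to Gad1 overlapped between Lmx1b+/- and both other genotypes.

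**Figure D5:**
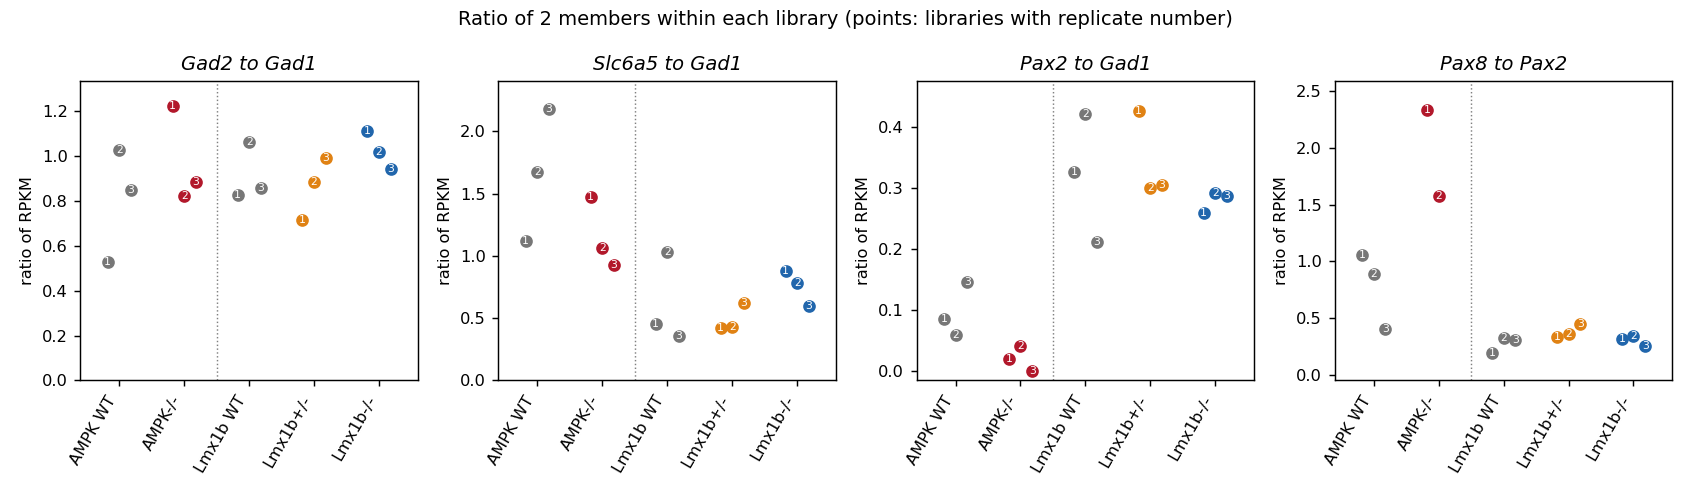
Ratio of the RPKM of 2 members within each library (vertical axes, linear) for the 5 groups of libraries; points are libraries with their replicate number, the dotted line separates the experiments, and AMPK-/- 3 has no Pax8 to Pax2 value because Pax2 was 0 there. Slc6a5 to Gad1 is at 0.924 to 2.18 in the newborn libraries and at 0.358 to 1.03 in the embryonic ones.

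Set side by side, the WT levels of the 6 tested members differed most between the experiments for Slc6a5 and Pax2. Mean Slc6a5 was 245 ± 63.9 CPM in newborn WT and 80.2 ± 42.6 CPM in embryonic WT, and mean Pax2 was 10.9 ± 4.52 and 31.5 ± 8.41 CPM (SD, n = 3 each). Gad1, at 159 ± 10.6 and 141 ± 9.77 CPM, and Gad2, at 96.9 ± 26.9 and 99.1 ± 9.76 CPM, lay close together. Age and experiment cannot be told apart here, and the tables were scaled separately, so no test was made.

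Across the 9 embryonic libraries, log2 CPM of Gad2 and Slc32a1 had a Pearson r of 0.92, Gad1 and Slc32a1 of 0.90 and Gad2 and Slc6a5 of 0.84, while Pax8 had r of -0.23 with Gad1 and -0.24 with Slc32a1. These values describe libraries of 3 genotypes that share the low heterozygous group. The gene with the pattern most like that of each member was Hip1 for Slc32a1 (r = 0.99), Ptprk for Gad1 (0.99), Cdh20 for Gad2 (0.98), Bmpr1b for Slc6a5 (0.97), Tpbg for Pax2 (0.97) and Msh3 for Pax8 (0.95), over the same 9 libraries. Each was picked as the highest r over all other tested genes. How high r would reach among unrelated genes was not tested. Genes that overlap the members in GENCODE M21, most on the opposite strand, held few reads: the antisense Gad1os had 92 counts over the 15 libraries beside 48219 of Gad1, and 1700039E22Rik had 76 beside 8665 of Pax2.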

How the data were processed

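RNA of brainstem was sequenced from libraries of the NEXTflex Rapid Directional qRNA-Seq kit on an Illumina sequencer. The submitters' processing notes name HISAT2 and GRCm39; the counter, its strand setting and the use of molecular indexes are not given in the sources used here. The authors deposited 1 table of counts per gene, whole numbers without normalization, and 1 of RPKM, the counts divided by gene length and library total, for each of the 2 experiments. Columns were matched to samples by genotype and number, with 0 other columns. Identifiers were matched to symbols for 51884 of 57180 genes.

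Counts were tested in R 4.3.3 with edgeR 4.0.16 (filterByExpr, TMM, quasi-likelihood F-test), in 1 fit of the 6 AMPK libraries and 1 of the 9 Lmx1b libraries. Genotype was the sole term, and p-values were adjusted by Benjamini-Hochberg across the tested genes; 95% intervals use the moderated degrees of freedom. CPM use the TMM-scaled total. RPKM were used for levels between genes and for ratios. Correlations used log2 CPM with a prior count of 2. The procedure was tested on simulated data. The members and gene lists were chosen with earlier results of these data known. Named were all 7 members, in each other list the called genes with the smallest adjusted p (at most 3), the targeted genes, and the genes most like each member in pattern; other named genes were chosen after their values were seen. A gene that this rule would name is not reported here.

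Alternatives were DESeq2 1.42.0, RLE, library size only and pan-neuronal scaling, no filter, the replicate number as a block, a length trend removed by lowess (span 0.3), limma 3.58.1 on log2(RPKM + 1) or log2(RPKM + 0.1), the 6 libraries compared alone, and each library or both shallow libraries left out.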

Additional observations from a re-analysis of the deposited data

How the results depend on the processing

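The number of members called for AMPK-/- against WT (1, Pax2) was 0 by DESeq2, where Pax2 had no adjusted p, 0 by limma on RPKM under each of 3 settings, 0 without both shallow libraries, 3 with pan-neuronal scaling, and 0 to 2 when 1 library was left out. For Lmx1b+/- against WT (4) it was 2 with the length trend removed. All other counts of called members stayed within 1.5 times.

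The mean of each genotype was subtracted from log2 CPM of every gene, and the remaining deviations were correlated between libraries. For same-numbered libraries of different genotypes these correlations were -0.18 to 0.15. In Lmx1b WT and Lmx1b-/- each library correlated best with its own number, at 0.08 to 0.15, while in the other comparisons none did. The labels do not say whether libraries were paired. With the replicate number as a block, Slc6a5 lost its call in Lmx1b+/- against WT (-0.70, adjusted p = 0.0657 in edgeR); it also did under DESeq2 (adjusted p = 0.0988).

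Fold changes that reversed sign were all uncalled. Gad1 for AMPK-/- against WT was -0.086 by library size, -0.16 with pan-neuronal scaling, -0.052 or -0.055 by limma, and -0.0039 to 0.23 with 1 library left out. With 1 library left out, Pax8 in that comparison ranged from -0.79 to 0.045. Pax8 for Lmx1b+/- against WT was -0.14 by library size, -0.061 or -0.073 by limma, and -0.092 to 0.49 with 1 library left out. For Lmx1b-/- against WT, the ranges with 1 library left out were -0.27 to 0.32 for Pax8, -0.13 to 0.045 for Gad1, -0.13 to 0.031 for Slc32a1 and -0.0045 to 0.79 for Slc6a5. For Lmx1b-/- against Lmx1b+/-, Pax8 was 0.042 by library size and 0.023 or 0.033 by limma, and Pax2 ranged from -0.012 to 0.37. The cause was not tested.

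Scaling by library size only moved the median of all genes from -0.0056 to -0.18 (AMPK), from -0.03 to -0.27 (Lmx1b+/- against WT) and from 0.02 to 0.22 (Lmx1b-/- against Lmx1b+/-), and the share of called genes that were lower from 57.9% to 85.8%, 47.0% to 73.9% and 54.9% to 25.8%. Pan-neuronal scaling moved the AMPK median to -0.24 and the share to 91.5%. The 1555 genes called for AMPK (8.94% of 17397 tested) came to 680 by DESeq2 (9.35% of 7276 with an adjusted p), 0 by limma and 6 without both shallow libraries, and ranged from 548 to 2958 with 1 library left out. Depth limits Ptf1a throughout and every AMPK value from the shallow libraries.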

Other observations

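The excitatory counterparts of these genes were mixed. Of 10 genes tested in the embryos, 2 were called higher and 2 lower in Lmx1b+/- against WT, beside 36.7% called over all genes, and their sum was 295 to 446 CPM against 317 to 320 CPM. The vesicular glutamate transporter Slc17a7 had a log2 fold change of -2.08 (adjusted p = 0.00277 in edgeR). Its mean was only 0.746 CPM in Lmx1b+/- and 3.21 CPM in WT. The far more abundant transporter Slc17a6, at 246 and 235 CPM, was not called (0.06, adjusted p = 0.745). The sensory factor Prrxl1 had a log2 fold change of 1.52 (adjusted p = 0.00966), with overlapping groups. In Lmx1b-/- against Lmx1b+/-, Prrxl1 had -2.87 (adjusted p = 0.000426). Lmx1b, which is on this list but is the targeted gene, had -4.05 (adjusted p = 4.3e-05), a fall set by the design. In the AMPK experiment Slc17a7 was at -3.15 (adjusted p = 7.89e-08), Pou4f1 at 1.99 (adjusted p = 0.0138) and Lmx1b at -1.35 (adjusted p = 0.0233). Pou4f1 overlapped between the labels. Slc17a6, at a mean of 236 CPM in AMPK-/- and 199 CPM in WT, was not called (0.27, adjusted p = 0.312 in edgeR). The difference between the excitatory and inhibitory genes was not tested.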
